A study of Drosophila melanogaster with 9 samples.

Results

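The genes described here encode the machinery that carries newly made proteins into the endoplasmic reticulum (ER) and onward through the Golgi. The signal recognition particle (SRP) brings ribosomes to the ER membrane, the Sec61 channel takes the growing chain across it, and signal peptidase removes the signal sequence. COPII coats bud carriers from ER exit sites, COPI coats return material from the Golgi to the ER, SNARE proteins fuse the carriers with their targets, and the exocyst tethers late vesicles at the plasma membrane. In Drosophila embryos these genes are broadly used and are known for high expression in secretory tissues such as the salivary gland, and in epidermis, fat body and blood cells that lay down cuticle and matrix.

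Members were all genes with a probe set of their own whose symbol begins with Sec, Spase, Srp, SsR, Tango or Trapp (or TRAPP), or ends in COP. This gave 43 of 10563 genes, each with 1 probe set, and none of the symbols began with SsR or Trapp. Of the 43, 32 encode parts of the named secretory complexes and 8 are Tango genes other than Tango1, so called from a screen for transport and Golgi organization. The other 3 share only letters with the pathway by what is known of them. They are Srpk79D, a kinase of SR splicing proteins, Secp43, named for a factor of the selenocysteine tRNA, and SecCl, of the ligand-gated chloride channel family. Sec23, Sec6, beta'COP, SrpRbeta and SsRbeta were not analysed here.

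Transcripts were measured on 9 Affymetrix arrays, each of fluorescent cells that had been sorted out of Drosophila melanogaster embryos at stage 13, after a 2 h egg collection and 8 h of ageing at 25 °C. The ap_GFP cells expressed GFP through a muscle enhancer of apterous (ap), the slou_RFP cells expressed RFP through a muscle enhancer of slouch (slou, S59), and the twi_actin_GFP cells expressed an actin-GFP fusion under the twist (twi) promoter. Each group had 3 arrays, every array from a sort of its own. When sorted again, 74% of ap_GFP cells, 87% of slou_RFP cells and 95% of twi_actin_GFP cells were fluorescent, per the labels. No mutation or drug was named for any group. Sorted cells are pools, so a level cannot be assigned to single cells, and fewer cells of a type and less RNA per cell cannot be told apart.

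The study compared each muscle reporter with the twist reporter. Levels are log2 signals made with RMA, which gives no detection call, and a difference of 1 is a factor of 2. Array medians lay between 4.47 and 4.61. Of 16 muscle and fusion genes measured, 14 were higher in ap_GFP and the same number in slou_RFP than in twi_actin_GFP (limma, adjusted p below 0.05). The tissue label, somatic mesoderm, is the same for all groups. Transcripts of twi averaged 9.39 in ap_GFP and 9.40 in slou_RFP, against 7.07 in twi_actin_GFP. Levels of ap averaged 8.97 in ap_GFP and 8.73 in slou_RFP. Those of slou averaged 10.54 in ap_GFP and 10.49 in slou_RFP, so neither gene parted the muscle reporters from each other. In earlier results of these data ap_GFP replicate 3 and slou_RFP replicate 2 stood apart from the other muscle reporter arrays, and counts are given with and without them.

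Most secretory pathway genes were lower in both muscle reporters than in the twist reporter. In ap_GFP 25 of 43 members fell (58.1%) and 1 rose, where 16.3% of all genes were called lower and 10.9% higher (limma, adjusted p below 0.05). In slou_RFP 25 of 43 fell (58.1%) and 1 rose, where 17.3% of all genes were called lower and 11.3% higher. The comparisons share the 3 twi_actin_GFP arrays, so they are not independent. For 24 members (55.8%) the fall was called in both, where this held for 15.1% of all genes. Of these, 11 (25.6% of the members) were lower by 2-fold or more in both, where 8.70% of all genes were. The median change of the members was -0.63 in ap_GFP and -0.61 in slou_RFP, against a median of 0.08 over all genes in each comparison. A mean of at least 6 in every group was found for 39 of 43 members. Sec20 and Tango2 reached it only in twi_actin_GFP, where they are highest, Tango9 only in the muscle reporters and SecCl in no group. Among the 5509 genes that reached it in at least 1 group, as 42 members did, 24.7% were called lower in ap_GFP and 26.6% in slou_RFP, with medians of -0.02 and -0.09. Without ap_GFP replicate 3 and slou_RFP replicate 2, 28 members were lower and 2 higher in ap_GFP, where 21.8% of all genes were called lower and 21.6% higher. In slou_RFP 27 members were lower and 2 higher without them, where 22.4% of all genes were called lower and 22.2% higher.

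**Figure D1:**
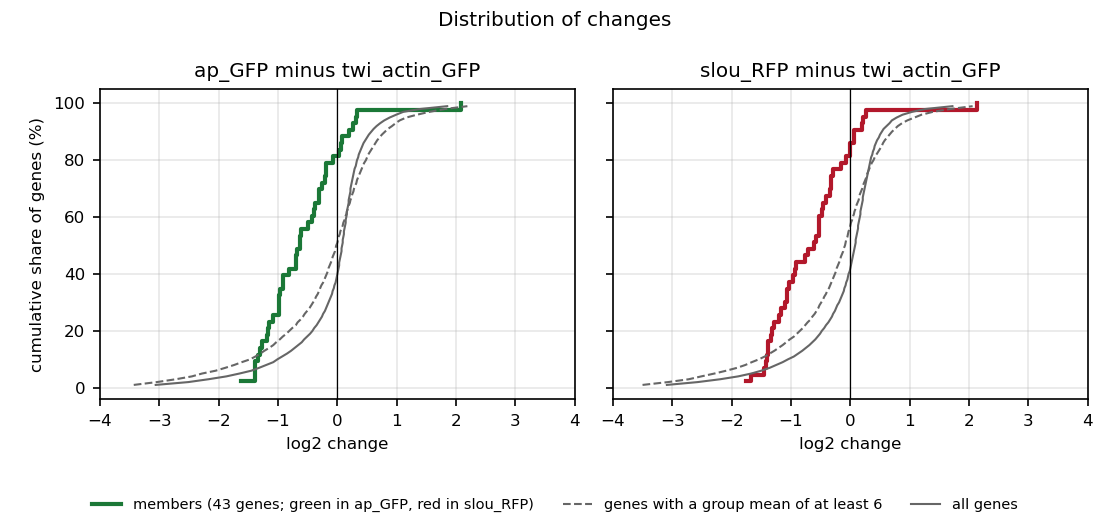
Cumulative share of genes (vertical axis, percent) against the log2 change (horizontal axis) in ap_GFP minus twi_actin_GFP on the left and slou_RFP minus twi_actin_GFP on the right. The coloured step is the 43 members, the dashed line the 5509 genes with a group mean of at least 6 and the solid line all 10563 genes; the members lie to the left over most of the range, with medians of -0.63 and -0.61, while the lowest changes belong to other genes.

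The fall was also seen array by array. The 3 ap_GFP arrays lay below all 3 twi_actin_GFP arrays for 31 of 43 members and above them for 4, where 23.2% of all genes lay below and 28.9% above. The 3 slou_RFP arrays lay below for 32 members and above for 1, where 23.5% of all genes lay below and 25.4% above. For 31 members (72.1%) all 6 muscle reporter arrays were below the twist reporter arrays, where this held for 20.2% of all genes. Summed on the linear scale, the 43 members reached 29600 to 33000 on ap_GFP arrays and 28800 to 30600 on slou_RFP arrays, against 54400 to 57300 on twi_actin_GFP arrays. Bright genes weigh most in this sum. The 4 translocon genes gave 7830 to 8970 in ap_GFP and 7710 to 8730 in slou_RFP, against 21400 to 22700 in twi_actin_GFP. The 8 Tango genes other than Tango1 summed to 2830 to 3040 in ap_GFP and 2310 to 3000 in slou_RFP, against 2690 to 2740. The median SD per member was 0.14 in ap_GFP, 0.18 in slou_RFP and 0.06 in twi_actin_GFP. Single members spread more, such as zetaCOP (0.35, 0.61 and 0.06 in the same order) and Srpk79D (0.34, 0.59 and 0.43).

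The role group with the lowest median was the Sec61 translocon, whose 4 measured genes fell in both comparisons, by a median of -1.38 in ap_GFP and -1.44 in slou_RFP. Called lower among genes with a group mean of at least 6 were 24.7% in ap_GFP and 26.6% in slou_RFP. Sec61alpha, the channel-forming subunit, had 10.33, 10.42 and 10.44 in ap_GFP and 10.17, 10.36 and 10.24 in slou_RFP, against 12.03, 12.00 and 12.02 in twi_actin_GFP. Its groups did not overlap, and it was 3.07-fold lower in ap_GFP (log2 change -1.62 ± 0.08 SE, limma adjusted p = 7e-06) and 3.38-fold lower in slou_RFP (-1.76 ± 0.08, adjusted p = 4.26e-06). The small subunit gene Sec61beta had 11.89, 12.14 and 12.03 in ap_GFP and 11.94, 11.99 and 11.91 in slou_RFP, against 13.46, 13.32 and 13.44 in twi_actin_GFP. It fell by 1.38 and 1.46 on the log2 scale. Sec61gamma, the other small subunit, had 11.06, 11.15 and 11.40 in ap_GFP and 10.98, 11.45 and 11.06 in slou_RFP, against 12.56, 12.56 and 12.64 in twi_actin_GFP. The 3 Sec61 subunits thus fell by similar amounts, 1.38 to 1.62 in ap_GFP and 1.42 to 1.76 in slou_RFP. Sec63, a translocon partner with a J domain, fell less, by 0.81 and 0.92.

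Upstream of the channel, the SRP fell unevenly. Of 7 measured genes for SRP proteins and the SRP receptor, 4 fell in each comparison (57.1%) and 0 rose. Among genes with a group mean of at least 6, 24.7% were called lower in ap_GFP and 26.6% in slou_RFP. SrpRalpha, the receptor subunit that docks SRP at the ER, had 9.77, 9.77 and 9.42 in ap_GFP and 9.61, 9.59 and 9.62 in slou_RFP, against 10.59, 10.57 and 10.56 in twi_actin_GFP. It fell by 0.92 (adjusted p = 0.000346) and 0.97 (adjusted p = 0.000262), with no overlap of the groups. The SRP protein genes Srp68 (-0.69 in ap_GFP and -0.77 in slou_RFP), Srp14 (-0.63 and -0.71) and Srp9 (-0.42 and -0.53) also fell. Srp19 (-0.20 and -0.16), Srp54k (-0.26 and -0.41), which encodes the subunit that binds signal sequences, and Srp72 (-0.20 and -0.30) did not pass. Srp54k passed in ap_GFP without slou_RFP replicate 2 (adjusted p = 0.0435). In slou_RFP it passed after quantile normalization (0.0494) and with array weights (0.0107). Srp72 had 9.15, 9.29 and 8.53 in ap_GFP and 9.15, 8.33 and 9.17 in slou_RFP, against 9.17, 9.14 and 9.24 in twi_actin_GFP. Its low values were those of the arrays that stand apart, and without them its change was 0.03 in ap_GFP and -0.03 in slou_RFP.

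Downstream of the channel, Spase25, a signal peptidase subunit gene, had 9.69, 9.89 and 9.83 in ap_GFP and 9.57, 9.79 and 9.71 in slou_RFP, against 11.17, 11.02 and 11.01 in twi_actin_GFP. It was 2.41-fold lower in ap_GFP (adjusted p = 4.15e-05) and 2.59-fold lower in slou_RFP (adjusted p = 2.64e-05). The other subunit gene, Spase12, fell in ap_GFP (-0.68, adjusted p = 0.0175) and did not pass in slou_RFP (-0.46, adjusted p = 0.0715). On slou_RFP replicate 2 Spase12 stood at 10.31, close to the twi_actin_GFP values of 10.46, 10.32 and 10.35. Without slou_RFP replicate 2 it passed there too (-0.66, adjusted p = 0.00139). Its call in ap_GFP ended without ap_GFP replicate 1 (adjusted p = 0.0693), twi_actin_GFP replicate 1 (0.0597) or twi_actin_GFP replicate 3 (0.0551).

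**Figure D2:**
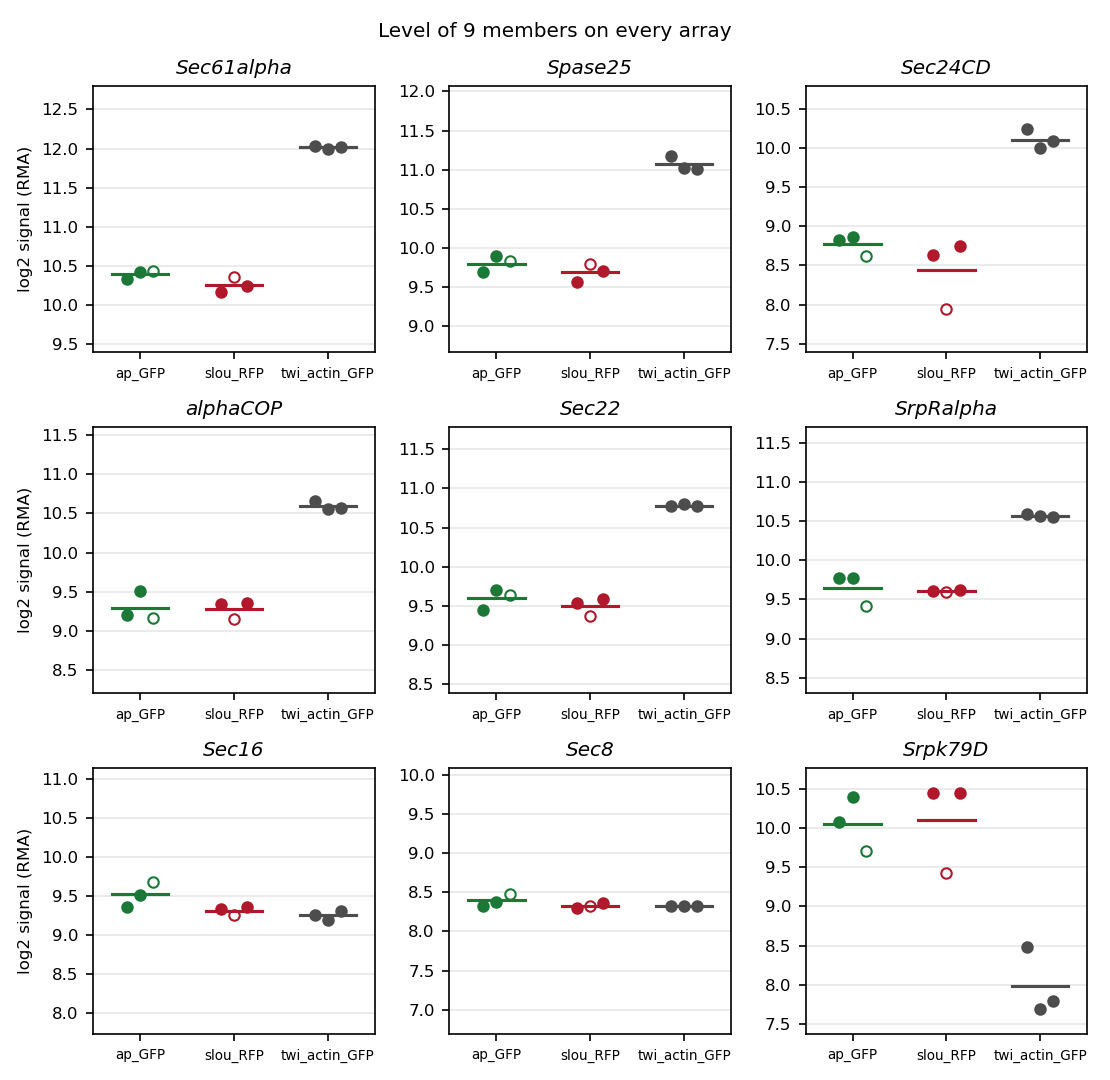
Log2 signal (vertical axis, each panel spanning the same range) of 9 members on every array, with ap_GFP, slou_RFP and twi_actin_GFP from left to right, a bar at the group mean and open circles for ap_GFP replicate 3 and slou_RFP replicate 2. Sec61alpha, Spase25, Sec24CD, alphaCOP, Sec22 and SrpRalpha are lower on all 6 muscle reporter arrays, Sec16 and Sec8 are nearly level, and Srpk79D is higher.

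At the ER exit site, the COPII coat genes fell and the genes that organize the site did not pass. Sec24CD, a cargo-selecting subunit of the inner coat, had 8.82, 8.86 and 8.62 in ap_GFP and 8.63, 7.95 and 8.75 in slou_RFP, against 10.24, 10.00 and 10.09 in twi_actin_GFP. It was 2.54-fold lower in ap_GFP (-1.34 ± 0.20, adjusted p = 0.00138) and 3.18-fold lower in slou_RFP (-1.67 ± 0.20, adjusted p = 0.000416), and slou_RFP replicate 2 was the lowest array. Sec13, an outer coat subunit that also serves in nuclear pores, had 9.73, 9.94 and 9.66 in ap_GFP and 9.73, 9.77 and 9.79 in slou_RFP, against 10.97, 10.85 and 10.95 in twi_actin_GFP. Its outer coat partner Sec31 fell by 1.08 in ap_GFP and 1.10 in slou_RFP, close to the 1.15 and 1.16 of Sec13. By contrast Sec16, a scaffold of ER exit sites, had 9.36, 9.51 and 9.68 in ap_GFP and 9.33, 9.25 and 9.36 in slou_RFP, against 9.26, 9.19 and 9.31 in twi_actin_GFP. Its changes of 0.26 (95% interval 0.04 to 0.49, adjusted p = 0.0954) and 0.06 (-0.17 to 0.29, adjusted p = 0.673) did not pass. Tango1, the exit-site receptor for bulky cargo such as collagen, had changes of -0.31 (adjusted p = 0.101) and -0.32 (adjusted p = 0.082). All 6 of its muscle reporter values lay below those of twi_actin_GFP, and further quantile normalization took it past the threshold in ap_GFP (adjusted p = 0.0468), as array weights did in slou_RFP (0.0203).

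Of 6 measured COPI coat subunit genes, 5 were called lower in ap_GFP and 6 in slou_RFP. By comparison, 24.7% of genes with a group mean of at least 6 were called lower in ap_GFP and 26.6% in slou_RFP. alphaCOP had 9.20, 9.51 and 9.16 in ap_GFP and 9.34, 9.15 and 9.35 in slou_RFP, against 10.66, 10.56 and 10.57 in twi_actin_GFP. It was 2.48-fold lower in ap_GFP (adjusted p = 6.94e-05) and 2.49-fold lower in slou_RFP (adjusted p = 6.79e-05). betaCOP had 8.79, 8.93 and 8.88 in ap_GFP and 8.72, 8.81 and 8.84 in slou_RFP, against 9.96, 9.78 and 9.80 in twi_actin_GFP. It fell by 0.98 and 1.06, beside epsilonCOP (0.98 and 1.04) and gammaCOP (0.97 and 1.07), so these 3 subunits moved by nearly equal amounts. deltaCOP fell least, by 0.50 and 0.61. zetaCOP had 7.32, 7.96 and 7.88 in ap_GFP and 7.53, 6.52 and 7.62 in slou_RFP, against 8.68, 8.57 and 8.66 in twi_actin_GFP. It fell by 1.41 in slou_RFP (adjusted p = 0.00789), where replicate 2 was lowest, and its change of -0.92 in ap_GFP did not pass (adjusted p = 0.0522). A further probe set was annotated to zetaCOP and CG5946 together and so was used for neither. It had 8.86, 9.21 and 9.05 in ap_GFP and 9.01, 9.51 and 9.10 in slou_RFP, against 10.84, 10.70 and 10.76 in twi_actin_GFP. It fell in both, by 1.72 (adjusted p = 6.19e-05) and 1.56 (adjusted p = 0.000108), and there slou_RFP replicate 2 was the highest slou_RFP array. Without slou_RFP replicate 2 the ap_GFP change of zetaCOP passed as well (adjusted p = 0.00271), as it did without slou_RFP replicate 3 (0.0485) and without both arrays that stand apart (0.00187). The same change passed after quantile normalization (0.027), with array weights (0.00188) and with a variance trend (0.0472). So it did with the 2 groups alone (0.00735) and over only probe sets with a group mean of at least 6 (0.0366).

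Genes for retrieval and Golgi traffic fell too. Sec20, a SNARE of Golgi-to-ER retrieval, had 5.76, 5.99 and 6.07 in ap_GFP and 5.77, 5.99 and 6.09 in slou_RFP, against 7.24, 7.33 and 7.43 in twi_actin_GFP. Sec20 was 2.62-fold lower in ap_GFP (adjusted p = 7.28e-05) and 2.60-fold lower in slou_RFP (adjusted p = 7.65e-05). The ER and Golgi SNARE gene Sec22 had 9.45, 9.70 and 9.64 in ap_GFP and 9.53, 9.37 and 9.59 in slou_RFP, against 10.77, 10.80 and 10.77 in twi_actin_GFP. It fell by 1.18 and 1.28, with groups that did not overlap. Sec71, an exchange factor for Arf GTPases, fell by 0.62 (adjusted p = 0.0145) and 0.58 (adjusted p = 0.0196). Its calls were less secure. In ap_GFP the call ended without ap_GFP replicate 1 (adjusted p = 0.0583) or twi_actin_GFP replicate 3 (0.0577). In slou_RFP it ended without slou_RFP replicate 1 (0.0689) or 3 (0.0592) or without twi_actin_GFP replicate 1 (0.0529), 2 (0.0523) or 3 (0.0731). Quantile normalization ended both (adjusted p = 0.0643 in ap_GFP and 0.143 in slou_RFP).

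The exocyst, at the far end of the route, split. Of 5 measured subunit genes, 2 fell and 0 rose in each comparison, with medians of -0.31 and -0.52. Among genes with a group mean of at least 6, 24.7% were called lower in ap_GFP and 26.6% in slou_RFP. A count of 2 in 5 genes is not set apart from those shares. Sec10 had 7.33, 7.58 and 7.14 in ap_GFP and 7.26, 6.75 and 7.38 in slou_RFP, against 8.40, 8.28 and 8.31 in twi_actin_GFP. It fell by 0.98 (adjusted p = 0.00374) and 1.20 (adjusted p = 0.00126). Sec5 fell by 0.70 in ap_GFP (adjusted p = 0.0112). In slou_RFP Sec5 fell by 0.52 (adjusted p = 0.0396), and this call ended on omission of any 1 array other than slou_RFP replicates 2 and 3 (adjusted p 0.0508 to 0.108 over 7 omissions). It also ended after quantile normalization, where the change was -0.18 (adjusted p = 0.315), with median centring (0.0612), with a variance trend (0.0605), with the 2 groups alone (0.0819) and with a replicate block (0.0683). Sec8 had 8.33, 8.38 and 8.48 in ap_GFP and 8.30, 8.32 and 8.36 in slou_RFP, against 8.32, 8.33 and 8.33 in twi_actin_GFP. Its changes were 0.07 (95% interval -0.10 to 0.25) and 0.00 (-0.17 to 0.18), so that a change as large as that of Sec10 lay outside both intervals. Sec15 (-0.07 and 0.07) and Sec3 (-0.31 and -0.53, adjusted p = 0.231 and 0.0549) did not pass. Without slou_RFP replicate 2 Sec3 passed in both (adjusted p = 0.0332 and 0.0482), and in slou_RFP also without slou_RFP replicate 3 (0.0322).

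**Figure D3:**
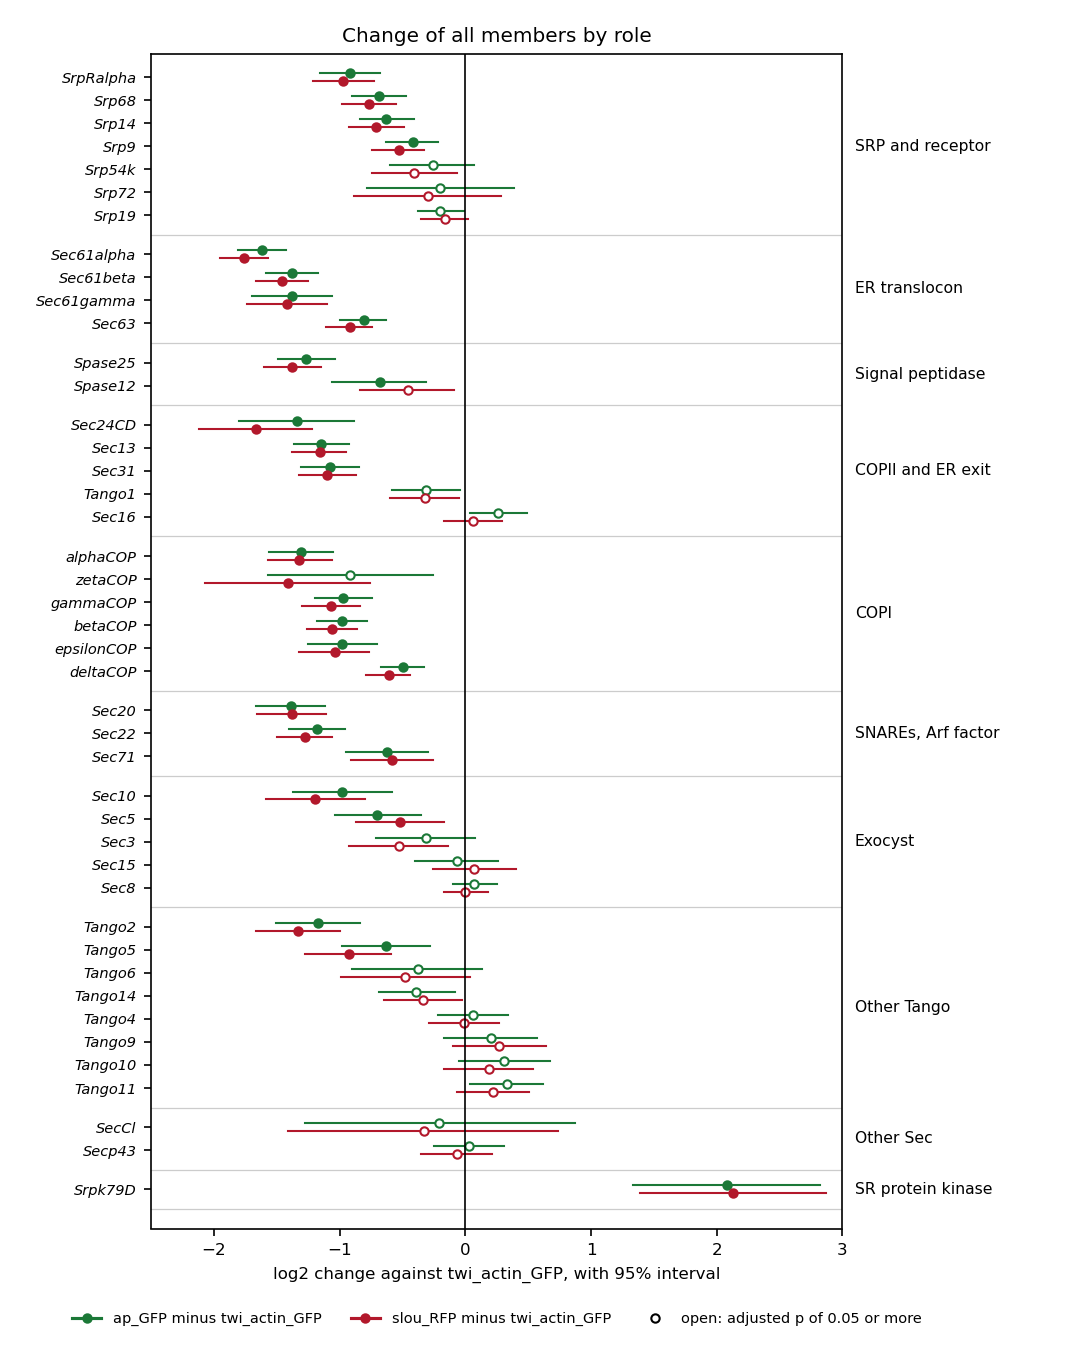
Log2 change against twi_actin_GFP (horizontal axis) of all 43 members, grouped by role, with ap_GFP above slou_RFP for each gene, lines for the 95% interval and open circles for an adjusted p of 0.05 or more. Translocon, signal peptidase, COPI, SNARE and COPII coat genes lie left of 0, and Srpk79D alone lies far to the right at 2.08 and 2.13.

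Of the remaining Tango genes 2 of 8 were lower and 0 higher in each comparison, a share near the 24.7% and 26.6% of genes with a group mean of at least 6, and their medians were -0.16 and -0.18. Tango2 had 5.72, 5.88 and 6.22 in ap_GFP and 5.71, 5.99 and 5.65 in slou_RFP, against 7.16, 7.01 and 7.17 in twi_actin_GFP. It was 2.26-fold lower in ap_GFP (adjusted p = 0.000529) and 2.52-fold lower in slou_RFP (adjusted p = 0.00026). Tango5, the fly counterpart of the ER membrane protein VMP1, fell by 0.63 and 0.93. Its call in ap_GFP (adjusted p = 0.0181) ended without ap_GFP replicate 2 (0.0656) or twi_actin_GFP replicate 2 (0.0564) or 3 (0.0709), and quantile normalization ended both of its calls (adjusted p = 0.207 in ap_GFP and 0.0624 in slou_RFP). Tango4, a splicing factor homologue, had changes of 0.06 and -0.01. Tango11, the fly counterpart of a mitochondrial fission factor, had changes of 0.33 (adjusted p = 0.104) and 0.22 (adjusted p = 0.232), and passed as higher in both without slou_RFP replicate 2 (adjusted p = 0.00616 and 0.00648). Tango14 had changes of -0.39 and -0.34 and passed in ap_GFP without slou_RFP replicate 2 (adjusted p = 0.0334). Tango6 (-0.38 and -0.48, adjusted p = 0.0244 in ap_GFP without both arrays that stand apart), Tango9 (0.20 and 0.27) and Tango10 (0.31 and 0.19) did not pass. After quantile normalization Tango10 passed as higher in both (adjusted p = 0.026 and 0.0374) and Tango9 in slou_RFP (0.0332). With array weights Tango10 passed as higher (0.0154) and Tango6 as lower (0.0186) in slou_RFP.

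Among the members that share only letters with the pathway, Srpk79D was the only 1 of the 43 that rose. Srpk79D had 10.08, 10.40 and 9.71 in ap_GFP and 10.45, 9.43 and 10.45 in slou_RFP, against 8.48, 7.69 and 7.79 in twi_actin_GFP. All 6 muscle reporter values lay above the twist reporter values, lowest on the arrays that stand apart, and the rise was 4.22-fold in ap_GFP (2.08 ± 0.33, adjusted p = 0.00192) and 4.37-fold in slou_RFP (2.13 ± 0.33, adjusted p = 0.00172). Secp43 (0.03 and -0.07) did not pass. SecCl had 5.02, 5.22 and 6.38 in ap_GFP and 5.06, 6.25 and 4.94 in slou_RFP, against 5.24, 5.64 and 6.37 in twi_actin_GFP. It was the dimmest member and did not pass, and its highest values in the muscle reporters were on the arrays that stand apart. With array weights SecCl passed as lower in slou_RFP (-0.82, adjusted p = 0.0208). The 32 genes of the named complexes alone had 23 lower (71.9%) and 0 higher in each comparison. By comparison, 24.7% of genes with a group mean of at least 6 were called lower in ap_GFP and 26.6% in slou_RFP.

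The muscle reporters were not told apart by any member. In ap_GFP minus slou_RFP 0 of 43 members were called by limma, 0 had an unadjusted p below 0.05 and the smallest was 0.0713. Over all probe sets 0.0% were called, and 430 had an unadjusted p below 0.05. The member difference was above 0 for 34 of 43, with a median of 0.08, and genes with a group mean of at least 6 had a median of 0.07 as well. For Sec61alpha the difference was 0.14 (95% interval -0.05 to 0.33), for alphaCOP 0.01 (-0.25 to 0.27) and for Sec13 0.02 (-0.20 to 0.23). The intervals were widest for SecCl (-0.95 to 1.20), Srpk79D (-0.79 to 0.69) and zetaCOP (-0.16 to 1.15), so larger differences could go unseen there. On slou_RFP replicate 2, 24 members lay below both other slou_RFP arrays and 13 above, by a median of -0.10 from their mean and from -1.06 for zetaCOP to 1.25 for SecCl. On ap_GFP replicate 3, 19 lay below and 12 above, by a median of 0.01.

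The other genes of the route were lower more often than higher. Of 86 further secretory pathway genes listed for this comparison 50 were measured, of which 25 fell and 4 rose in ap_GFP and 27 fell and 3 rose in slou_RFP, with medians of -0.52 and -0.53. Over all genes 16.3% were lower in ap_GFP and 17.3% in slou_RFP, and among genes with a group mean of at least 6 the shares were 24.7% and 26.6%. Of 11 ER chaperone and folding genes 7 fell and 1 rose in each. Hsc70-3, the ER chaperone BiP, averaged 11.42 in ap_GFP and 11.45 in slou_RFP, against 13.02 in twi_actin_GFP (adjusted p = 1.88e-05 and 2.03e-05). The thiol isomerase genes ERp60 (-2.14 and -2.09) and CaBP1 (-1.76 and -1.65) and the ER Hsp90 gene Gp93 (-1.37 and -1.37) fell with it. Ero1L, the ER oxidase, rose (0.99 and 0.85). The probe sets named for Pdi and Cnx14D lay at the dim end, with means of 3.05 and 3.48 in ap_GFP, so that little could be read from them, and DnaJ-1 on this list is a cytosolic chaperone.

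Among N-glycosylation genes 4 of 9 fell in each comparison, namely the oligosaccharyl transferase genes OstDelta (-1.72 and -1.64), Dad1 (-1.41 and -1.35) and Stt3B (-1.04 and -1.07) and the glucosyl transferase gene Alg10 (-1.34 and -1.20). Stt3A, the catalytic alternative to Stt3B, did not pass (0.00 and -0.25). The Golgi mannosidase gene alpha-Man-Ia rose in ap_GFP (1.14, adjusted p = 0.0348) and did not pass in slou_RFP (0.75, adjusted p = 0.122). In the p24 family and cargo receptor list 4 of 6 fell in each, led by loj (-1.38 and -1.59), eca (-0.92 and -1.02) and bai (-0.79 and -0.83). Golgi matrix and golgin genes fell in 6 of 11 cases in ap_GFP and 8 of 11 in slou_RFP, with 0 higher. Among them were the golgin gene Gmap (-1.94 and -2.06), the matrix gene GM130 (-0.79 and -0.85), the stacking factor gene Grasp65 (-1.09 and -1.13) and Gorab (-1.03 and -1.25).

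The remaining lists are small, and their counts are not set apart from those shares. Of 6 further SNARE and SNAP genes 2 fell in each, gammaSnap1 (-0.88 and -0.90) and Slh (-0.86 and -0.81). Exo70, an exocyst subunit, fell (-0.56 and -0.69) and Exo84 did not pass (-0.05 and 0.09). Rab2, a GTPase of ER-to-Golgi traffic and the only small GTPase of its list measured, rose by 0.51 (adjusted p = 0.016) and 0.41 (adjusted p = 0.0386). Of 4 unfolded protein response genes 1 fell and 1 rose in each, Herp (-0.65 and -0.57) and the ATF4 gene crc (0.88 and 0.91). CrebA and Xbp1, known regulators of secretory genes, were not analysed here.

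Secreted cargo was lower as well, with 7 of 11 matrix genes lower and 0 higher in each comparison. By comparison, 24.7% of genes with a group mean of at least 6 were called lower in ap_GFP and 26.6% in slou_RFP. The collagen IV genes Col4a1 (-2.61 and -2.95) and vkg (-2.68 and -3.12) and the perlecan gene trol (-2.20 and -2.40) fell, while the laminin genes LanB1 (-0.19 and -0.25) and LanB2 (-0.30 and -0.38) did not pass. The summed signal of the 11 genes was 20000 to 24900 in ap_GFP and 21200 to 21500 in slou_RFP, against 35500 to 62600 in twi_actin_GFP.

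Many markers of several other tissues were also lower in the muscle reporters, though not all. Over all genes 16.3% were called lower in ap_GFP and 17.3% in slou_RFP. With a group mean of at least 6 the shares were 24.7% and 26.6%. Fat body genes fell in 4 of 6 cases in each comparison, with summed signals of 1600 to 2170 in ap_GFP and 1490 to 1720 in slou_RFP, against 16800 to 18700 in twi_actin_GFP. Of 13 blood cell genes 9 were lower and 1 was higher in each comparison, with 4480 to 6360 in ap_GFP and 4010 to 5610 in slou_RFP, against 29000 to 47200 in twi_actin_GFP. Both sums were thus several times higher in the twist reporter. Bright genes weigh most in them, such as apolpp of the fat body list, at 13.54 in twi_actin_GFP. FASN1 (-0.04 and -0.18) and Fbp1 (0.11 and 0.19) of that list did not pass. On the blood cell list 5 matrix genes stand as well. The lists also share the GATA factor gene srp (fat body, blood cells and midgut; -2.45 and -2.68) and fkh (midgut and salivary gland; -1.43 and -1.32), so they are not separate evidence. The crystal cell gene PPO1 averaged 6.87 in ap_GFP and 6.41 in slou_RFP, against 12.15 in twi_actin_GFP. The hemocyte gene Hml was the 1 blood cell gene called higher (0.54 and 0.55, adjusted p = 0.00283 and 0.00266). It lay near the array medians in all groups, at 4.70, 4.71 and 4.16. All 6 tracheal genes fell, with 686 to 912 in ap_GFP and 531 to 1270 in slou_RFP, against 5110 to 6290 in twi_actin_GFP. Midgut genes fell in 6 of 7 cases, with 794 to 1130 in ap_GFP and 877 to 1180 in slou_RFP, against 7230 to 8150 in twi_actin_GFP. Without srp and fkh the 5 other midgut genes summed to 298 to 482 in ap_GFP and 346 to 761 in slou_RFP, against 3400 to 5530 in twi_actin_GFP. Each of these ranges lay apart from that of the twist reporter.

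Salivary gland genes fell in 5 of 8 cases in each comparison, with 602 to 778 in ap_GFP and 656 to 663 in slou_RFP, against 1120 to 1300 in twi_actin_GFP. The 5 were pip (-2.29 and -2.03), fkh, PH4alphaSG1 (-1.19 and -1.24), SoxN (-0.99 and -1.03) and Papss (-0.77 and -0.80). The salivary bHLH gene sage (0.45 and 0.28), hkb (0.23 and 0.17) and eyg (0.08 and -0.04) did not pass. Epidermal genes fell in 5 of 12 cases in ap_GFP and 6 of 12 in slou_RFP, with 1790 to 1990 in ap_GFP and 1700 to 2130 in slou_RFP, against 4020 to 4280 in twi_actin_GFP. The others, 7 in ap_GFP and 6 in slou_RFP, did not pass, among them grh (-0.09 and -0.09). For ct (0.87 and 0.80) all 6 muscle reporter arrays lay above the twist reporter arrays. By comparison, 24.7% of genes with a group mean of at least 6 were called lower in ap_GFP and 26.6% in slou_RFP. Glial genes fell in 5 of 7 cases in ap_GFP and 4 of 7 in slou_RFP, with 2130 to 2320 in ap_GFP and 2100 to 2430 in slou_RFP, against 3330 to 3760 in twi_actin_GFP. Of 7 neuronal genes 3 were higher in each comparison and 1 was lower in ap_GFP. The others, 3 in ap_GFP and 4 in slou_RFP, did not pass. Over all genes 10.9% were called higher in ap_GFP and 11.3% in slou_RFP. Summed, the neuronal list gave 3690 to 4750 in ap_GFP and 3480 to 4670 in slou_RFP, against 2710 to 2920 in twi_actin_GFP. Muscle and fusion genes summed to 34600 to 41500 in ap_GFP and 27000 to 40200 in slou_RFP, against 8680 to 10700 in twi_actin_GFP. The part of these tissues in the lower secretory signal was not tested.

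**Figure D4:**
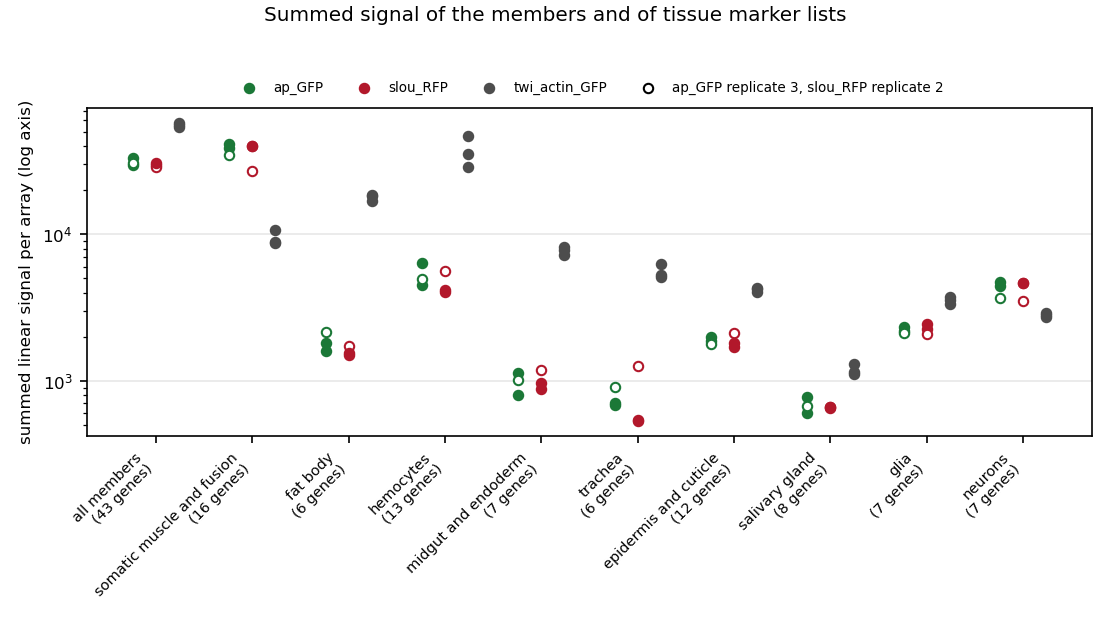
Summed linear signal on each array (vertical axis, logarithmic) of the 43 members and of 9 marker lists, with ap_GFP, slou_RFP and twi_actin_GFP from left to right within each list and open circles for ap_GFP replicate 3 and slou_RFP replicate 2. The members and the lists of fat body, hemocytes, midgut, trachea, epidermis, salivary gland and glia are lower on the 6 muscle reporter arrays, and the muscle and neuronal lists are higher.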

How the data were processed

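Log2 signals per probe set were deposited by the authors, made with RMA in Partek per the submitters' processing notes, whose versions the sources used here do not give. Values ran from 2.28 to 14.64 over 16377 probe sets, with no further scaling or filter applied. Gene names came from the platform annotation: 11899 had 1 gene, 353 several and 4125 none, and 11806 of the 1-gene IDs were found in RefSeq's gene table, with 0 symbols updated. The probe set with the highest mean stood for a gene.

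All 9 arrays entered 1 limma 3.58.1 model of 3 group means under R 4.3.3 (eBayes, no covariates), with Benjamini-Hochberg adjustment over all probe sets and a threshold of 0.05. A ± gives the fit's standard error. The number of arrays limits the precision, and RMA compresses differences between dim signals. Listed genes without a probe set of their own were not analysed here. By the rule for named genes, values on every array were given for the 8 largest called decreases and increases, by the mean of both changes, and the member with the smallest adjusted p in each role group. Up to 4 genes per pathway list were named by adjusted p. Per-array values of Sec16, Sec8, Srp72 and zetaCOP, and the other genes named as values, were chosen after their values were seen. Members and lists were chosen with earlier results of these data known. The pipeline was tested on simulated data. Replicate numbers entered no main model, and alternatives are given in the closing section.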

Additional observations from a re-analysis of the deposited data

How the results depend on the processing

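The counts of members lower than twi_actin_GFP stayed within 1.5 times of 25 under every alternative run, at 18 to 29 in ap_GFP and 20 to 32 in slou_RFP. Counts over all probe sets moved too, so these member counts alone do not measure stability. In ap_GFP 1992 probe sets were lower in the main fit, 1522 without twi_actin_GFP replicate 3 and 2729 with array weights. In slou_RFP the same fits gave 2120, 1552 and 3398. Higher in slou_RFP were 1826 in the main fit and 5830 with array weights. With 1 array left out, 22 to 29 members were lower in ap_GFP and 23 to 27 in slou_RFP, and 1 to 2 were higher in each. The count of higher members moved from 1 to 3 in both comparisons after quantile normalization, to 2 in ap_GFP and 3 in slou_RFP with array weights, to 2 in ap_GFP with the 2 compared groups alone, and to 2 in both without the arrays that stand apart, ap_GFP replicate 3 with slou_RFP replicate 2. Of the other pathway genes higher in slou_RFP, 3 as reported, 5 passed after quantile normalization and 6 without these arrays. The causes were not tested. Over single members, 0 of 730 values per comparison reversed with a call, 10 lost and 21 gained a call in ap_GFP, and 19 and 21 in slou_RFP. Between ap_GFP and slou_RFP 0 members were called by limma under any alternative. The submitters' threshold was taken as an unadjusted limma p below 0.05 and a change of at least 1.7-fold. It gave 18 members lower in ap_GFP and 20 in slou_RFP, and the share of all genes under it was not counted. With the replicate number as a block 25 and 24 members were lower, with Sec5 lost in slou_RFP (adjusted p = 0.0683). Same-numbered arrays had deviations from their group means correlated from -0.618 to 0.491. The arrays that stand apart carry different numbers, so these values cannot tell whether the numbers pair the samples. Each member had a single probe set of its own, so choosing among these changed nothing. The probe set shared by zetaCOP and CG5946 passed as lower in ap_GFP (-1.72, adjusted p = 6.19e-05), where that of zetaCOP did not (0.0522). RMA values carry no detection call, which limits SecCl most.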
